A study of Mus musculus with 9 samples.

Results

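The smooth muscle contractile apparatus and its tropomyosins were followed through 10 genes, chosen by name: Acta2, Actg2, Myh11, Myl9, Mylk, Tpm1, Tpm2, Tagln, Cnn1 and Smtn. All probe sets that the array annotation pairs with 1 of these symbols were taken, which gave 21 of the 45037 probe sets tested. By gene that is 10 of 18193. Tpm1 and Tpm2 had 4 probe sets each, Acta2 and Mylk 3 each, Myh11 had 2, and the others had 1. The measurements came from the tracheal epithelium of mice hemizygous for KRT5-GFP, a transgene in which the keratin 5 promoter drives green fluorescent protein (GFP). Single cells were sorted on GFP and on binding of the isolectin GSI-A3B, and their RNA was hybridised to Affymetrix mouse arrays. The GFP+ gate held KRT5-GFP+ lectin+ cells and the lectin-only gate held KRT5-GFP- lectin+ cells, both called basal cells in the labels. The columnar gate held KRT5-GFP- lectin- cells, called columnar epithelium. All 3 gates came from the same transgenic line. Each gate had 3 biological replicates, so the data are 9 arrays. The sources used here do not give age, sex or the number of animals behind a replicate.

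In smooth muscle, actin and myosin filaments slide past each other once a calcium-dependent kinase phosphorylates the regulatory light chain of myosin. Tropomyosins lie along the actin filament, and calponin, transgelin and smoothelin bind it. Serum response factor, which binds the CArG box, drives many of these genes. In the airway wall they mark smooth muscle, and in submucosal glands they mark myoepithelial cells. Several of the same proteins, or close relatives of them, also serve the stress fibres of other cell types.

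RefSeq promoter windows of GRCm38.p6, which run from 250 bases before the annotated start to 50 bases after it, were matched by symbol for 7 of the 10 genes. Actg2, Myh11 and Tagln had no entry. Windows for 3 genes are shown because they differ in these motifs and their genes differ in the arrays. Acta2 is at chr19:34255324-34255623 on the minus strand, Myl9 at chr2:156775214-156775513 on the plus strand, and Tpm2 at chr4:43523505-43523804 on the minus strand. Each runs 5′ to 3′ on the gene's strand, and capitals mark matches to a CArG box or to a CArG-like sequence, which has the same outer bases and at most 1 inner base that is neither A nor T.
Acta2: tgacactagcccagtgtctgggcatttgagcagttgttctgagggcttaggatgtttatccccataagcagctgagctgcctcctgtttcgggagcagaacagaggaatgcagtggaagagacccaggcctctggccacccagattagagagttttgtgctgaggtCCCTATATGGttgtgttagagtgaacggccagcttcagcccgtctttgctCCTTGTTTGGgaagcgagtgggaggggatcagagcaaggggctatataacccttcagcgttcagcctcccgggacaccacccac
Myl9: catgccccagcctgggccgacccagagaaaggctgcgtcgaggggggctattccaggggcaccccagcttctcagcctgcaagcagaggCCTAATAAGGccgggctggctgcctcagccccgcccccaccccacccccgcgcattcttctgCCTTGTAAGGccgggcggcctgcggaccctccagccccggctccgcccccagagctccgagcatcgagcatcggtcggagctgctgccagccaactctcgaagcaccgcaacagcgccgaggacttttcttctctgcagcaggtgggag
Tpm2: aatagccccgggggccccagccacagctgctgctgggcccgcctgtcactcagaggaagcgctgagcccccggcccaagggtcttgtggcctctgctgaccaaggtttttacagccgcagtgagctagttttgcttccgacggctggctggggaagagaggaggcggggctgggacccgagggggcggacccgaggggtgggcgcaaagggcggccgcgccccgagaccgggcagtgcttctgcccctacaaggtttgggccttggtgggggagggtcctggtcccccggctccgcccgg

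Acta2 had 2 CArG-like matches, CCCTATATGG at -84 and CCTTGTTTGG at -34, where -1 is the base before the start. Myl9 had the CArG box CCTAATAAGG at -161 and the CArG-like CCTTGTAAGG at -99. Neither kind was found in the Tpm2 window, nor in those of Mylk, Tpm1, Cnn1 or Smtn. Of 32851 RefSeq promoter windows of 300 bases, 1.63% held a CArG box and 9.98% a CArG-like match, and every CArG box also counts as CArG-like. The muscle element CATTCC, searched on both strands, was in the windows of Acta2, Mylk, Tpm1 and Smtn and in 14.7% of all windows. The AP-1 site TGANTCA was in that of Mylk, as TGAGTCA at -64, and in 7.81% of all windows. These matches describe letters and no binding was measured.

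Signals are log2 values as deposited. A background level of 3.56 was set from 80 probe sets of olfactory and vomeronasal receptors. Of the 21 probe sets, 7 were above it on all 9 arrays and 19 on at least 1. Those for Tpm2 at 1419739_at and Tpm1 at 1447713_at were under it on all 9. On lectin-only replicate 3 the median of all probe sets was 5.43 and 73.0% of them were above background. The other 8 arrays had medians of 4.90 to 5.16, with 65.3% to 66.3% of probe sets above background. The sort was checked against markers. All 5 airway basal markers (Krt5, Krt14, Trp63, Ngfr, Snai2) were higher in the GFP+ and in the lectin-only gate than in the columnar gate. Of the 5 columnar markers, Foxj1, Dnah9, Muc5b and Tff2 were lower in both, and Scgb1a1 was not called. Against the columnar gate, Cd3e of the 5 leukocyte markers (Ptprc, Cd74, Srgn, Csf1r, Cd3e) was higher in the GFP+ gate, with 4 of the 5 under an unadjusted p of 0.05, and all 5 were higher in the lectin-only gate. Their summed linear signals were 740.3 to 2036 in the GFP+ gate, 10043 to 14420 in the lectin-only gate and 457.8 to 938.7 in the columnar gate. A probe set is called different here where limma's Benjamini-Hochberg adjusted p is under 0.05 and the log2 difference is at least 1 in size.

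Tpm2, Mylk, Acta2 and Smtn were the genes called between sorted gates. In the GFP+ gate, 6 of the 21 probe sets, from these 4 genes, were higher than in the columnar gate and 0 were lower, and 7 were under an unadjusted p of 0.05, each with the higher mean in the GFP+ gate. Of all probe sets, 3.86% were called higher and 3.14% lower in that comparison, or 7.00% in either direction. In the lectin-only gate, 5 probe sets of Tpm2, Mylk and Acta2 were called higher than in the columnar gate and 0 were called lower. Of all probe sets, 3.81% were called higher and 1.28% lower there, or 5.08% in either direction. Under an unadjusted limma p of 0.05 were 9 of the 21, each with the higher mean in the lectin-only gate. In GFP+ cells set against lectin-only cells, limma called 0 of the 21, where 0.451% of all probe sets were called higher and 1.18% lower, or 1.63% in either direction. There, 3 of the 21 were under an unadjusted p of 0.05, each with the lower mean in the GFP+ gate. The share of all probe sets under an unadjusted p of 0.05 was not counted, so such counts, here and for the lists below, have no base. Both comparisons with the columnar gate share its 3 arrays. In this bulk RNA, fewer cells of a type and less RNA per cell cannot be told apart.

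**Figure D1:**
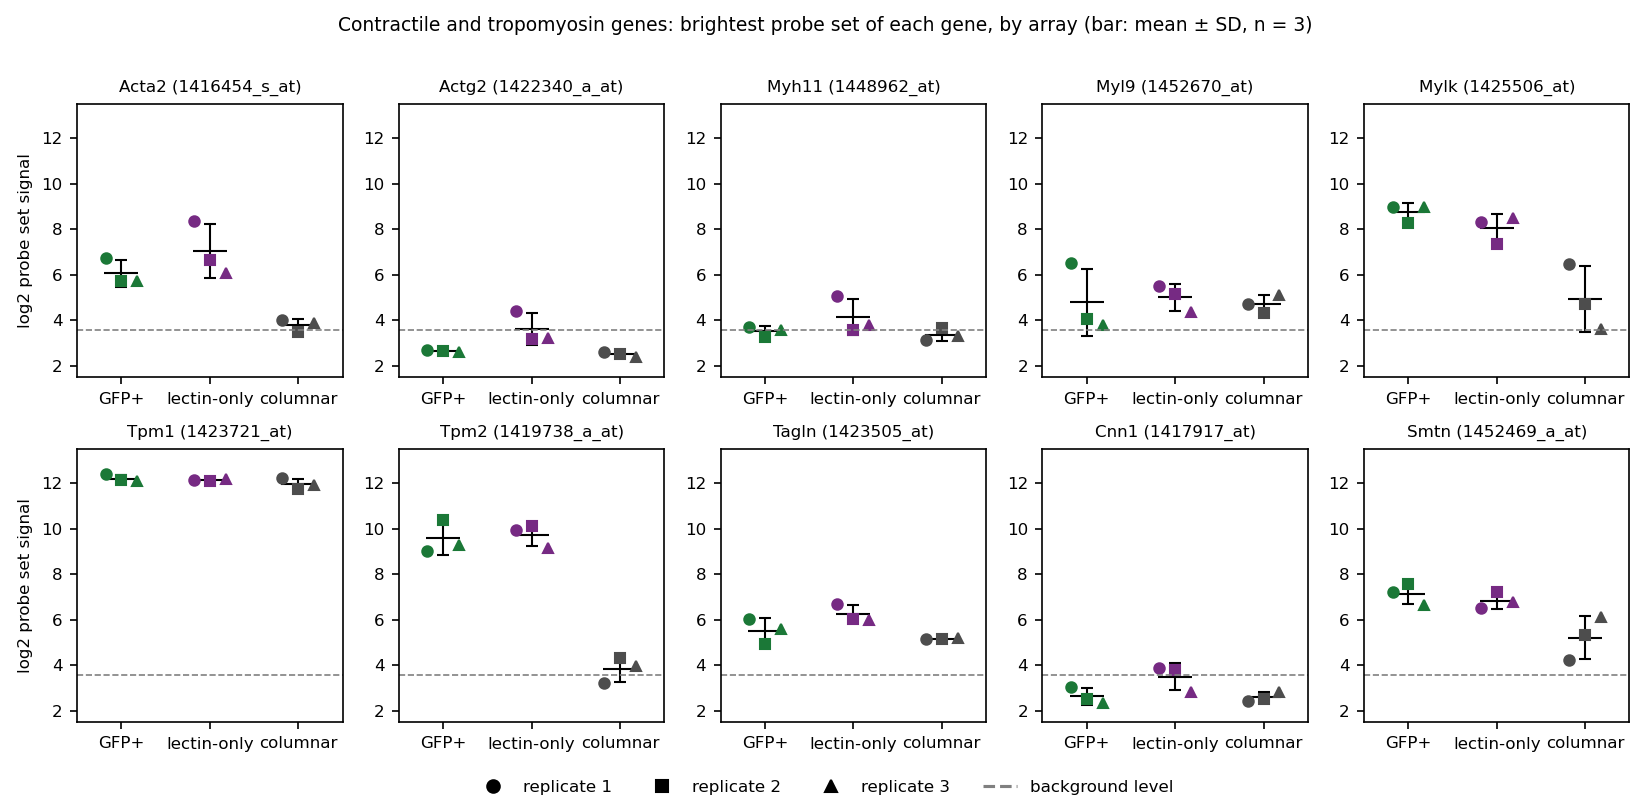
Deposited log2 signal of the brightest probe set of each of the 10 genes on the 9 arrays, with GFP+, lectin-only and columnar gates from left to right. Points are arrays, bars are the mean ± SD of 3, and the dashed line is the background level of 3.56. Tpm2 at 1419738_a_at lies at 9.04 to 10.38 in the GFP+ gate, at 9.17 to 10.11 in the lectin-only gate and at 3.20 to 4.31 in the columnar gate, while Tpm1 at 1423721_at stays between 11.76 and 12.40 in all 3.

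The alpha actin Acta2, the thin-filament actin of vascular and airway smooth muscle and a mark of myofibroblasts and myoepithelial cells, was read by 1416454_s_at at 6.74, 5.72 and 5.72 in the GFP+ gate. It read 8.36, 6.65 and 6.09 in the lectin-only gate, and 3.99, 3.46 and 3.87 in the columnar gate. All 6 arrays of the lectin-binding gates lay above the 3 columnar arrays, and lectin-only replicate 1 was the highest of the 9. The GFP+ gate was higher than the columnar gate by 2.28 ± 0.53 on the log2 scale (SE, n = 3 per gate), a 4.87-fold difference (limma adjusted p = 0.0265). The lectin-only gate was higher by 3.26 ± 0.53, or 9.57-fold (limma adjusted p = 0.0059), and by 2.60 without lectin-only replicate 1. On the columnar arrays the receptor probe sets' own 95th percentiles were 3.32, 3.63 and 3.93. Both folds therefore rest on columnar signals near background. The GFP+ call was lost when any 1 GFP+ or any 1 columnar array was left out, with differences of 1.94 to 2.45 and adjusted p-values of 0.0528 to 0.0944. A probe set with this suffix may match transcripts of several genes, so a share from other actins was not measured. The other 2 Acta2 probe sets were not called, and were above background on lectin-only replicate 3 only, at 3.71 and 3.63, where the receptor probe sets' own 95th percentile was 3.77. On the other 8 arrays they lay between 2.56 and 3.18.

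The gamma actin Actg2, the main actin of visceral smooth muscle, had 2.69, 2.65 and 2.59 in the GFP+ gate, 4.41, 3.16 and 3.23 in the lectin-only gate, and 2.61, 2.53 and 2.40 in the columnar gate. Only lectin-only replicate 1 was above background. With the GFP+ and columnar arrays all under background no fold is given between those gates. The lectin-only gate was at least 1.03-fold above the columnar gate and was not called (limma adjusted p = 0.0803), and without that array no signal was above background.

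The myosin heavy chain of smooth muscle, Myh11, had 3.70, 3.28 and 3.59 at 1448962_at in the GFP+ gate, 5.06, 3.59 and 3.77 in the lectin-only gate, and 3.13, 3.65 and 3.30 in the columnar gate. Most arrays lay near background and lectin-only replicate 1 stood above the rest. The lectin-only difference from the columnar gate was 0.78 ± 0.36 (limma adjusted p = 0.329) and 0.32 without that array. The second Myh11 probe set, 1418122_at, lay between 2.97 and 3.65 on all arrays, and above background only on columnar replicates 2 and 3. The Pearson r between the 2 probe sets over the 9 arrays was -0.856, taken on values mostly near or under background.

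Myl9, the regulatory light chain that the kinase phosphorylates, had 6.50, 4.07 and 3.80 in the GFP+ gate, 5.52, 5.16 and 4.37 in the lectin-only gate, and 4.72, 4.32 and 5.13 in the columnar gate. The gates overlap, and GFP+ replicate 1 was the highest array. The difference between the GFP+ and the columnar gate was 0.07 ± 0.64 (limma adjusted p = 0.98), and -0.79 without that array.

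Mylk, the myosin light chain kinase, differed most between gates at 1425506_at. Its signals were 9.0, 8.26 and 8.97 in the GFP+ gate, 8.32, 7.36 and 8.51 in the lectin-only gate, and 6.49, 4.74 and 3.62 in the columnar gate. The 3 columnar arrays lay below all 6 others and spread over almost 3 units. Columnar replicate 3, at 3.62, lay under the receptor probe sets' own 95th percentile on that array, 3.93. The GFP+ gate was higher than the columnar gate by 3.80 ± 0.63, or 13.9-fold (limma adjusted p = 0.00453), and kept its call in every alternative fit, at 3.13 to 4.57. The lectin-only gate was higher by 3.11 ± 0.63, or 8.66-fold (limma adjusted p = 0.0178), but lost its call without columnar replicate 2, lectin-only replicate 1 or lectin-only replicate 3 (adjusted p = 0.0594, 0.0751 and 0.0818), and when only the 6 arrays compared were fitted (adjusted p = 0.051).

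The other 2 Mylk probe sets did not show a difference of that size. At 1425505_at the signals were 3.83, 3.80 and 3.87 in the GFP+ gate, 3.63, 3.49 and 3.78 in the lectin-only gate, and 3.52, 3.35 and 2.90 in the columnar gate, a GFP+ difference of at least 1.21-fold with the columnar arrays below background (limma adjusted p = 0.13). Its signals ran with those of 1425506_at across the 9 arrays (Pearson r 0.952). At 1425504_at the signals lay between 3.17 and 4.34, the GFP+ gate differed from the columnar gate by 0.08, and its r with 1425506_at was -0.068. The sources used here do not say which Mylk transcripts each probe set reads.

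Tpm2, the beta tropomyosin, gave the largest difference of the 10 genes. At 1419738_a_at it had 9.04, 10.38 and 9.30 in the GFP+ gate, 9.95, 10.11 and 9.17 in the lectin-only gate, and 3.20, 4.31 and 3.94 in the columnar gate. The columnar arrays lay about the background level and at least 4 units below all the others. The GFP+ gate was higher than the columnar gate by 5.76 ± 0.42, or 54.0-fold (limma adjusted p = 5.13e-05), and the lectin-only gate by 5.93 ± 0.42, or 60.8-fold (adjusted p = 9.05e-05). The GFP+ and lectin-only gates differed by -0.17 (limma adjusted p = 0.943).

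A second Tpm2 probe set, 1425028_a_at, repeated the pattern, with 8.96, 10.41 and 8.83 in the GFP+ gate, 9.85, 10.34 and 8.80 in the lectin-only gate, and 3.25, 3.83 and 3.99 in the columnar gate. Its differences from the columnar gate were 5.72 ± 0.49 in the GFP+ gate and 5.98 ± 0.49 in the lectin-only gate (limma adjusted p = 0.000126 and 0.000189). Across the 9 arrays it followed the first with a Pearson r of 0.996. The third, 1449577_x_at, had 6.71, 8.0 and 6.60 in the GFP+ gate, 7.25, 8.21 and 6.61 in the lectin-only gate, and 2.92, 3.27 and 5.24 in the columnar gate. Columnar replicate 3 stood above the other 2 columnar arrays there, and the differences were smaller, at 3.29 ± 0.65 in the GFP+ gate and 3.55 ± 0.65 in the lectin-only gate (limma adjusted p = 0.0118 and 0.011). A probe set with an x suffix may cross-hybridise. The fourth, 1419739_at, lay at 2.38 to 3.01 and showed no signal above background.

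Tpm1, the alpha tropomyosin, was called in none of the 3 comparisons by any of its 4 probe sets. At 1423721_at it had 12.40, 12.14 and 12.08 in the GFP+ gate, 12.15, 12.11 and 12.18 in the lectin-only gate, and 12.21, 11.76 and 11.93 in the columnar gate. The gates overlap, with 0.24 ± 0.18 between the GFP+ and columnar gates and 0.18 ± 0.18 between the lectin-only and columnar gates (limma adjusted p = 0.591 and 0.74). At 1423049_a_at, between 8.63 and 10.32 over the 9 arrays, and at 1456623_at, between 5.26 and 6.99, the GFP+ differences were 0.32 and 0.20 and were not called. The last, 1447713_at, lay at 1.97 to 3.09, under background on every array.

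**Figure D2:**
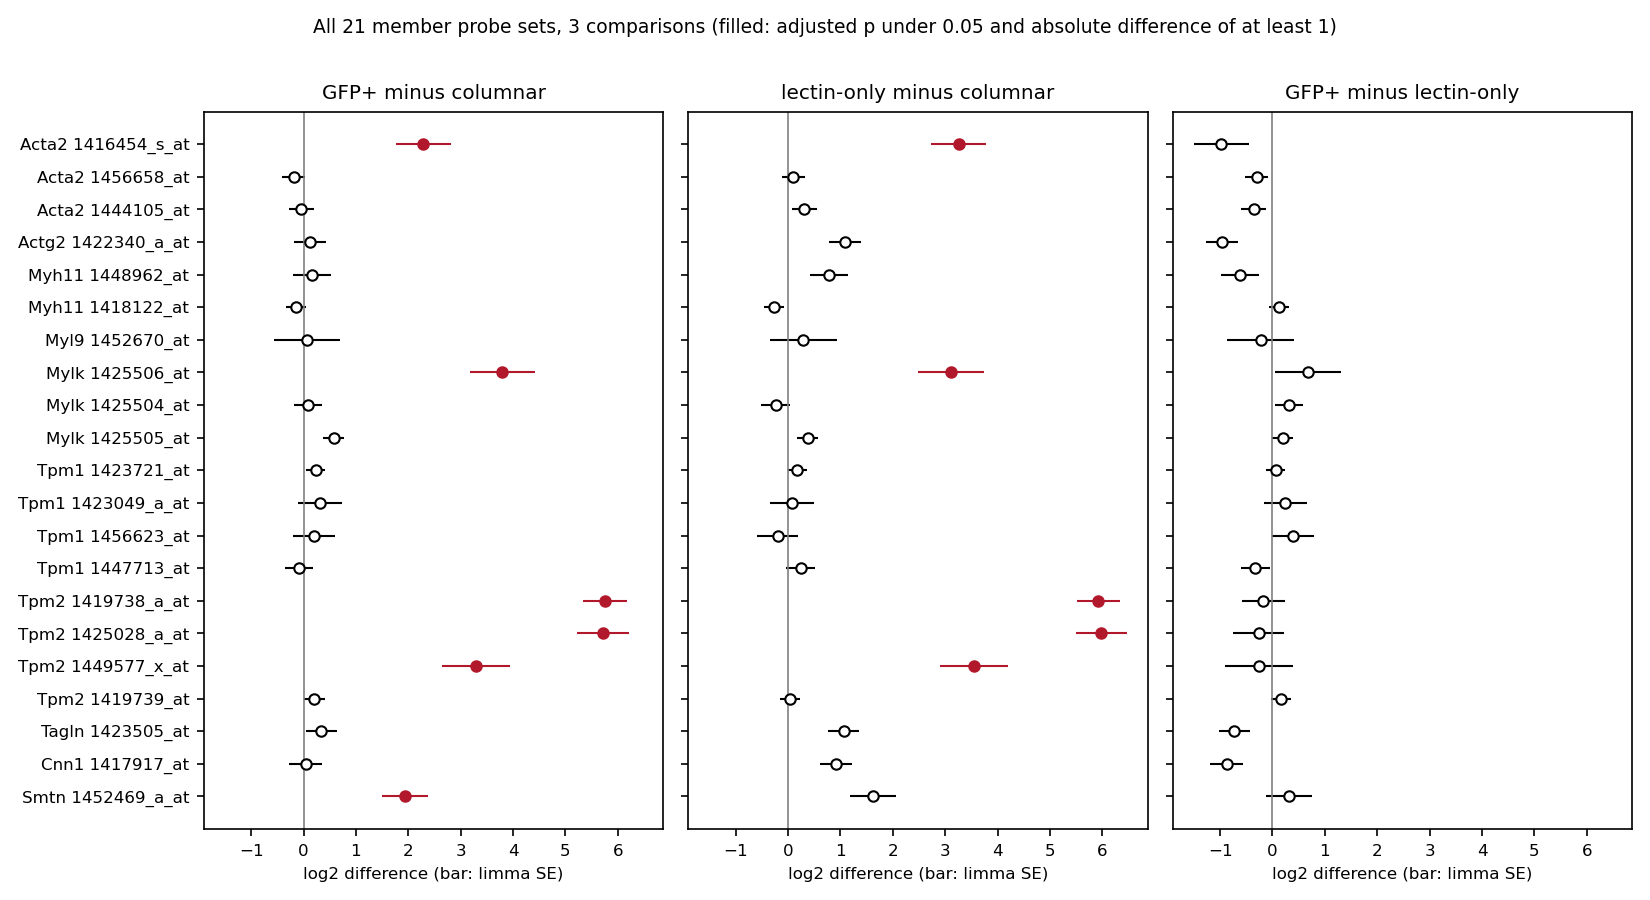
Log2 differences of all 21 probe sets for the 3 comparisons, with bars of 1 SE from limma, where filled symbols mark the calls. Tpm2, Mylk, Acta2 and Smtn lie to the right for the GFP+ gate against the columnar gate, and no probe set is called between the GFP+ and lectin-only gates.

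Smtn, smoothelin, a protein bound to actin stress fibres of contractile smooth muscle, had 7.21, 7.56 and 6.65 in the GFP+ gate, 6.49, 7.20 and 6.79 in the lectin-only gate, and 4.24, 5.31 and 6.10 in the columnar gate. Every array of the lectin-binding gates was above every columnar array, and the columnar arrays spread by almost 2 units. The GFP+ gate was higher than the columnar gate by 1.93 ± 0.44, or 3.81-fold (limma adjusted p = 0.0242). That call was lost without GFP+ replicate 1, GFP+ replicate 2, columnar replicate 1 or columnar replicate 2 (adjusted p = 0.0753, 0.0912, 0.0502 and 0.0592), and when only the 6 arrays compared were fitted (adjusted p = 0.0658). The lectin-only gate had a difference of 1.62 ± 0.44 (limma adjusted p = 0.0692). It was called without columnar replicate 3, at 2.06 (adjusted p = 0.0201), and with 1 probe set per gene (adjusted p = 0.0443). Over all alternatives the lectin-only difference was 1.13 to 2.06, and its adjusted p reached 0.185.

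Tagln, transgelin, an early marker of smooth muscle, had 6.01, 4.91 and 5.61 in the GFP+ gate, 6.69, 6.02 and 6.0 in the lectin-only gate, and 5.16, 5.15 and 5.19 in the columnar gate. The lectin-only arrays lay above the columnar ones, and the GFP+ arrays overlapped with them. The lectin-only difference from the columnar gate was 1.07 ± 0.30 (limma adjusted p = 0.0757), and the GFP+ difference was 0.34 ± 0.30 (adjusted p = 0.648). It was called in the lectin-only gate without GFP+ replicate 2 (adjusted p = 0.0381), with replicate number as a block (adjusted p = 0.0434) and with 1 probe set per gene (adjusted p = 0.0476). Without lectin-only replicate 1 the difference was 0.84 (adjusted p = 0.203), and without lectin-only replicate 3 it was 1.19 (adjusted p = 0.11).

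Cnn1, calponin, which binds actin and slows the myosin motor, had 3.04, 2.51 and 2.32 in the GFP+ gate, 3.88, 3.79 and 2.82 in the lectin-only gate, and 2.41, 2.52 and 2.82 in the columnar gate. It was above background on 2 arrays, both of the lectin-only gate. The columnar arrays were all under background and the lectin-only mean was 3.50, also under it, so no fold is given, and the difference was not called (limma adjusted p = 0.154). The fit without lectin-only replicate 3 did call it (adjusted p = 0.028), against a gate with no signal above background.

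Read without a threshold on p, 7 of the 21 probe sets had every GFP+ array above every columnar array, where 12.7% of all probe sets did, and 8 of 21 did so for the lectin-only gate, where 12.1% of all did. The reverse order held for 1 of the 21 in the GFP+ gate (13.9% of all) and for 0 in the lectin-only gate (6.55% of all). Tpm2 entered both of the higher counts, and Mylk that of the GFP+ gate, with more than 1 probe set, so these are not counts of separate genes. The median difference over the 21 was 0.21 for the GFP+ gate against the columnar gate, with -0.04 over all probe sets. It was 0.38 for the lectin-only gate, with 0.07 over all. Between the GFP+ and lectin-only gates the median was -0.23, with -0.09 over all, and 1 probe set lay wholly higher and 1 wholly lower, where 4.41% and 9.98% of all probe sets did.

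One array recurs in these values. Taking each gene at its brightest probe set, lectin-only replicate 1 was the highest of the 9 arrays for 5 of the 10 genes, Acta2, Actg2, Myh11, Tagln and Cnn1. It was the highest for 2.99% of the 30143 probe sets with a mean above background, a base that leaves out Actg2 and Cnn1, whose means were 2.92 and 2.90. Lectin-only replicate 3, the array of highest median, was highest for 33.0% of those probe sets and for 0 of the 10 genes. GFP+ replicate 1 was the highest of its gate for 8 of the 10 genes and for 37.0% of those probe sets. The 5 genes that peak on lectin-only replicate 1 include Acta2, whose call in the lectin-only gate does not rest on that array.

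Markers of other contractile cells were read as lists. The 7 smooth muscle markers (Des, Lmod1, Myocd, Synm, Kcnmb1, Npnt, Itga8) had summed linear signals of 390.4 to 596.1 in the GFP+ gate, 421.6 to 1138 in the lectin-only gate and 533.1 to 835.4 in the columnar gate. Most of these sums is Npnt, and without it the other 6 summed to 85.0 to 127.9 in the GFP+ gate, 104.0 to 136.6 in the lectin-only gate and 76.6 to 102.7 in the columnar gate. Of these 7, 0 were called higher than in the columnar gate in either lectin-binding gate. Of all probe sets, 3.86% were called higher in the GFP+ gate and 3.81% in the lectin-only gate. By limma, 2 and 3 were under an unadjusted p of 0.05 in the GFP+ and lectin-only gates against the columnar gate. Kcnmb1 was called lower in the GFP+ gate. Myocd, the cardiac and smooth muscle coactivator of serum response factor, lay under background on all 9 arrays. Itga8, an integrin of smooth muscle, had 2.58, 2.41 and 2.67 in the GFP+ gate, 4.47, 2.90 and 3.40 in the lectin-only gate, and 2.17, 2.44 and 2.88 in the columnar gate. It peaked on lectin-only replicate 1, while Des, Synm and Npnt peaked on lectin-only replicate 3, Lmod1 on GFP+ replicate 1, and Kcnmb1 and Myocd on columnar replicate 3. Lmod1, leiomodin, which nucleates actin filaments, had 6.22, 5.24 and 5.47 in the GFP+ gate, 5.19, 5.08 and 5.67 in the lectin-only gate, and 4.46, 4.88 and 4.87 in the columnar gate. Its columnar arrays lay below the other 6, with differences of 0.91 ± 0.28 in the GFP+ gate and 0.57 ± 0.28 in the lectin-only gate that were not called (limma adjusted p = 0.0953 and 0.376).

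The 6 gland myoepithelial markers summed to 2052 to 4560 in the GFP+ gate, 1798 to 3966 in the lectin-only gate and 63.2 to 182.0 in the columnar gate, but 4 of the 6 are Acta2, Actg2, Cnn1 and Myh11 themselves and another is the basal keratin Krt14. The last, Oxtr, the oxytocin receptor, had 2.94, 3.01 and 2.86 in the GFP+ gate, 3.38, 4.60 and 3.49 in the lectin-only gate, and 2.80, 3.17 and 3.48 in the columnar gate. The 7 pericyte markers summed to 239.4 to 494.3 in the GFP+ gate, 871.2 to 1342 in the lectin-only gate and 788.9 to 871.0 in the columnar gate, and Kcnj8, Abcc9 and Higd1b were under background in all 3. Rgs5, of this list, was at least 4.32-fold higher in the lectin-only gate against the columnar gate (limma adjusted p = 0.0327). Notch3, which carries most of the pericyte sums, was lower in the GFP+ gate than in the columnar gate by -1.49 ± 0.39 (limma adjusted p = 0.0457), and without it the list summed to 111.7 to 118.6 in the GFP+ gate, 113.6 to 260.2 in the lectin-only gate and 97.4 to 130.1 in the columnar gate. The 6 fibroblast markers summed to 2071 to 3137 in the GFP+ gate. Their sums were 759.1 to 1201 in the lectin-only gate and 637.2 to 775.5 in the columnar gate. Dcn, at log2 signals of 11.589, 11.189 and 10.951 in the GFP+ gate, carries most of the GFP+ sums. The mean log2 signal of the 6 markers was lowest in the GFP+ gate, at 4.71 to 5.111. It was 5.785 to 6.674 in the lectin-only gate and 6.003 to 6.097 in the columnar gate. Of the 6, Dcn was higher in the GFP+ and in the lectin-only gate than in the columnar gate. Col1a1, Col1a2 and Col3a1 were lower in the GFP+ gate than in the columnar gate. The 5 endothelial markers summed to 70.1 to 78.6 in the GFP+ gate, 158.6 to 256.5 in the lectin-only gate and 74.6 to 93.8 in the columnar gate, with Pecam1 and Tek higher in the lectin-only than the columnar gate and Vwf lower in the GFP+ than the lectin-only gate. The 9 striated muscle markers summed to at most 127.5 on any array, and 0 were called in any comparison, nor were any under an unadjusted p of 0.05 in either comparison with the columnar gate. The part of these marker lists, and of the leukocyte signal, in the values of the 10 genes was not tested.

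**Figure D3:**
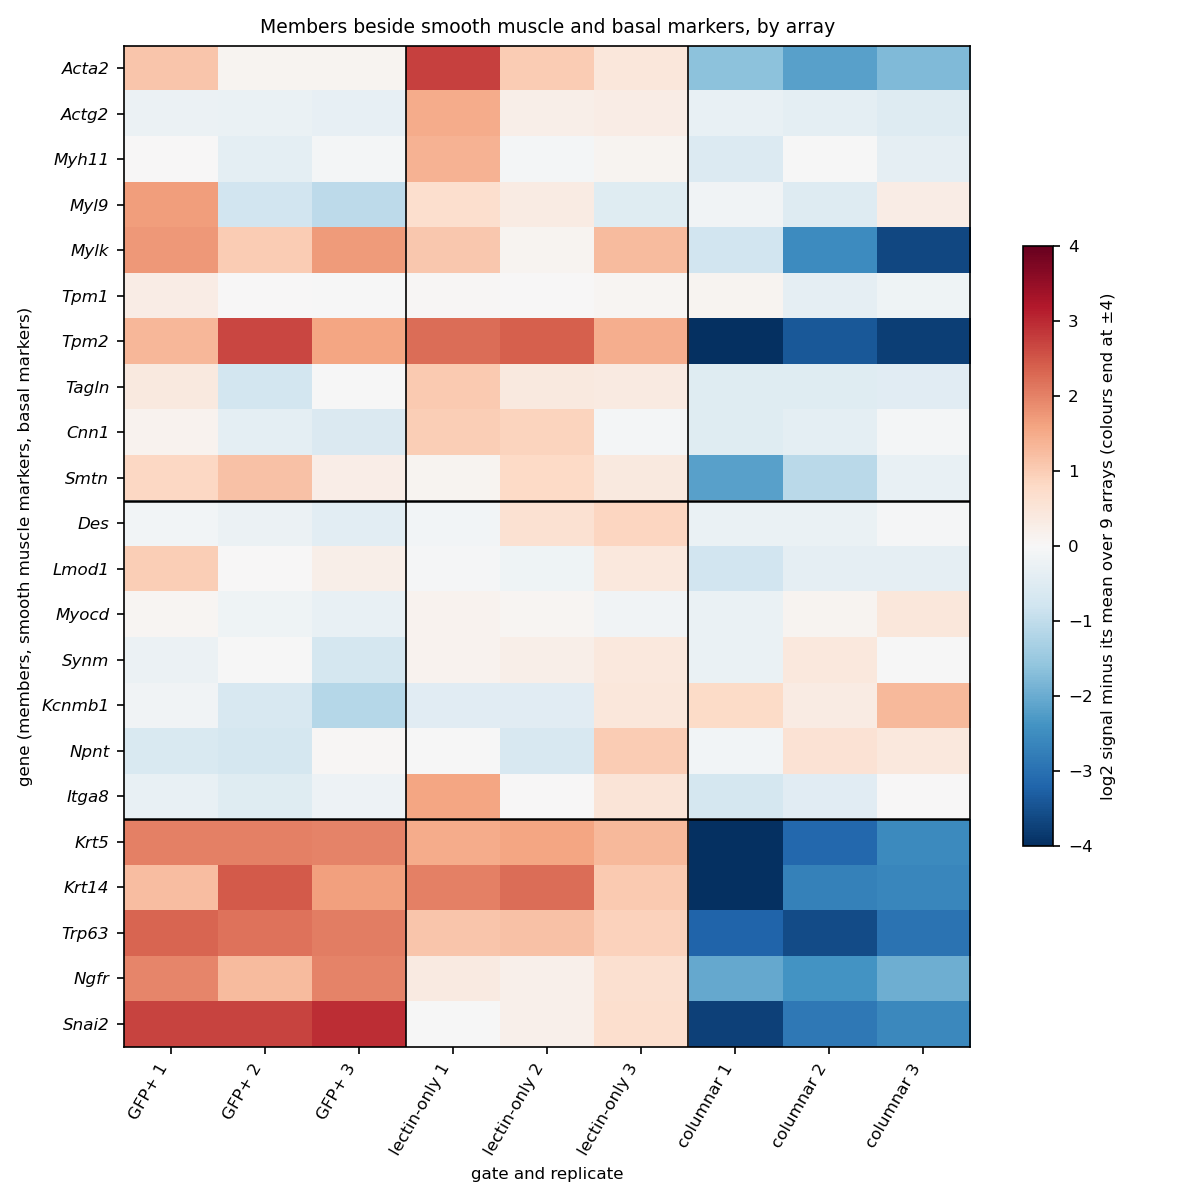
Log2 signal minus its mean over the 9 arrays, as colour (red above, blue below, ending at 4 in each direction), for the 10 genes, 7 smooth muscle markers and 5 basal markers, with the GFP+ arrays at the left, then the lectin-only and the columnar arrays. Tpm2 and the basal markers are blue on the 3 columnar arrays and red or near white on the other 6, while of the 7 smooth muscle markers only Lmod1 has all 6 lectin-binding arrays above the 3 columnar ones.

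Of 17 other genes of the actin cytoskeleton and smooth muscle, 16 were measured. In the GFP+ gate 4 were higher and 2 lower than in the columnar gate, with a median difference of -0.02 over the 16. In the lectin-only gate 3 were higher and 0 lower, with a median of 0.12. Tns1, tensin, which links actin to integrins, had 10, 9.44 and 10.10 in the GFP+ gate, 7.67, 6.98 and 8.48 in the lectin-only gate, and 5.92, 4.16 and 4.05 in the columnar gate. The 3 gates did not overlap in Tns1, and the GFP+ gate was higher than the columnar gate by 5.14 ± 0.52, or 35.2-fold (limma adjusted p = 0.000316). The lectin-only gate was higher by 3.00 ± 0.52 (limma adjusted p = 0.0088), a call lost with values under background set to it (adjusted p = 0.0557). Between the GFP+ and lectin-only gates Tns1 differed by 2.14 (limma adjusted p = 0.0906). There limma called 0 of the 16 and 1.63% of all probe sets, with 9 of the 16 under an unadjusted p of 0.05. Tns1 was called higher in the GFP+ gate there after median centring, with trended and robust eBayes, with only the 6 arrays compared and without columnar replicate 1 (adjusted p = 0.0406, 0.048, 0.0498 and 0.0324).

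Flna, filamin, which crosslinks actin, was higher in the GFP+ gate by 1.79 ± 0.25 and in the lectin-only gate by 1.27 ± 0.25 (limma adjusted p = 0.00168 and 0.015). Leaving out columnar replicate 2 or lectin-only replicate 1 ended the lectin-only call (adjusted p = 0.0527 and 0.0572), as did median centring (1.03, adjusted p = 0.0548). Pdlim7, a LIM domain protein of stress fibres, was higher by 1.74 ± 0.28 and 1.80 ± 0.28 in these gates (adjusted p = 0.00399 and 0.00471). Csrp1, another LIM protein, was higher in the GFP+ gate by 1.37 ± 0.27 (limma adjusted p = 0.0119), and its difference was 0.39 in the lectin-only gate, which was not called. Between the GFP+ and lectin-only gates Csrp1 differed by 0.98 (adjusted p = 0.135), and was called after median centring (adjusted p = 0.0486). Nexn, the actin-binding nexilin, was lower in the GFP+ gate by -1.56 ± 0.32 (adjusted p = 0.0138), and Kcnmb1, a potassium channel subunit of smooth muscle, was at least 1.23-fold lower (adjusted p = 0.0391). Nexn lost its call without GFP+ replicate 1 or columnar replicate 3 (adjusted p = 0.0559 and 0.0523), and with values under background set to it (adjusted p = 0.0504). Kcnmb1 lost it without GFP+ replicate 2, GFP+ replicate 3, columnar replicate 1, columnar replicate 3 or lectin-only replicate 1, with adjusted p-values of 0.0595 to 0.15. With values under background set to it, the Kcnmb1 difference was -0.36 and was not called (limma adjusted p = 0.447).

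Of 20 paralogues of the 10 genes, limma called 0 in any comparison. Among all probe sets, 7.00% were called in either direction in the GFP+ gate and 5.08% in the lectin-only gate against the columnar gate. Between the GFP+ and lectin-only gates 1.63% were called. These shares count every probe set, while each paralogue was read at 1. With 1 probe set per gene, the counts against the columnar gate were those given above for the companion genes. Between the GFP+ and lectin-only gates, 163 of 18193 genes were then called higher and 517 lower. Of the paralogues, 1 was under an unadjusted p of 0.05 in the GFP+ gate and 2 in the lectin-only gate against the columnar gate. Between the GFP+ and lectin-only gates 3 were. Smtnl2, a smoothelin-like gene, had -0.94 in the GFP+ gate against the columnar gate (limma adjusted p = 0.0511), and was called lower after median centring, at -1.03, and after quantile normalization, at -1.02. The cytoplasmic actins Actb and Actg1 lay within 0.14 of the columnar gate in both lectin-binding gates, and the cytoplasmic tropomyosins Tpm3 and Tpm4 had differences of 0.09 and 0.37 in the GFP+ gate and 0.31 and 0.50 in the lectin-only gate. Of 16 regulators of contractile genes and myosin phosphorylation, 15 were measured. Against the columnar gate, 2 were higher in the GFP+ gate, 1 was higher in the lectin-only gate and 0 were lower in either. Tgfb1, a growth factor that induces Acta2 in many mesenchymal cells, was higher in the GFP+ gate by 2.75 ± 0.28, or 6.74-fold (limma adjusted p = 0.000339), and in the lectin-only gate by 2.01 ± 0.28, or 4.03-fold (adjusted p = 0.00293). The myocardin-related factor Mrtfa was higher in the GFP+ gate by 1.10 ± 0.28 (adjusted p = 0.04). Its call was lost when any 1 GFP+ array, columnar replicate 2 or 3, or lectin-only replicate 2 or 3 was left out (adjusted p = 0.0517 to 0.132), and with replicate number as a block (adjusted p = 0.0534). Median centring and setting values under background to that level also ended it (limma adjusted p = 0.0534 and 0.0892). Srf, serum response factor itself, differed from the columnar gate by 0.79 in the GFP+ gate and 0.30 in the lectin-only gate, which were not called. Tgfb2 differed by -0.997 in the GFP+ gate and -1.544 in the lectin-only gate, also not called (limma adjusted p = 0.439 and 0.216). Ccn2 differed by -0.234 and -0.461, and Yap1 by 0.842 and 0.822, none of them called. All lectin-only arrays lay below every columnar array for Tgfb2, Ccn1 and Ccn2, and above every one for Tgfb1 and Yap1. Over the 15 regulators the median difference was -0.029 in the GFP+ gate and 0.003 in the lectin-only gate.

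**Figure D4:**
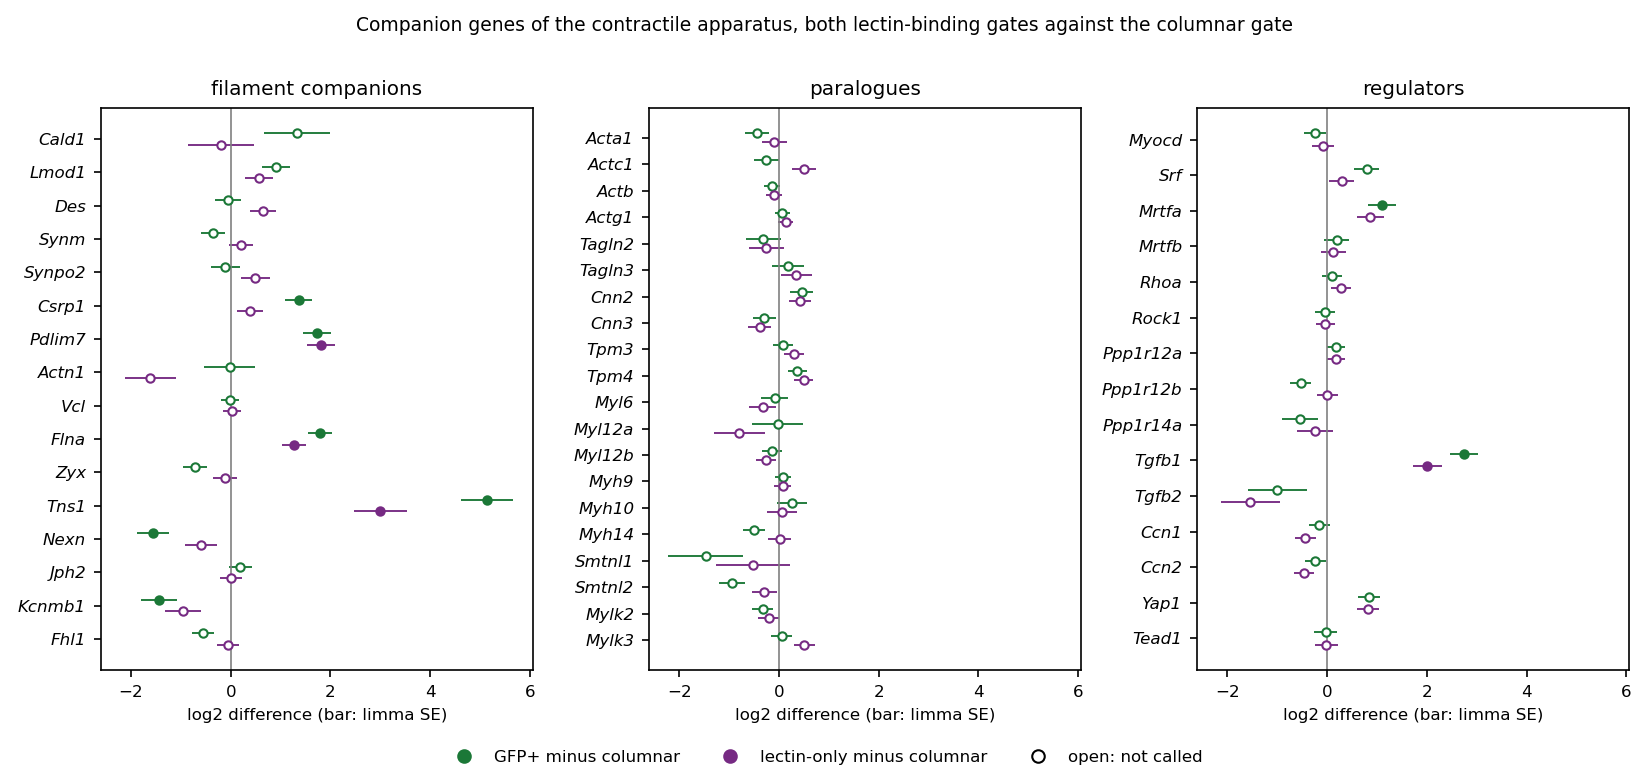
Log2 differences from the columnar gate of the companion genes, paralogues and regulators in the GFP+ and the lectin-only gate, with bars of 1 SE. Tns1 and Tgfb1 lie farthest to the right in the GFP+ gate at 5.14 and 2.75, and most paralogues lie within 0.51 of 0. Smtnl1 and Smtnl2 lie farther to the left in the GFP+ gate and are not called, and Smtnl1 is under background on all 3 GFP+ arrays.

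The probe sets whose signals ran most like those of the 4 called genes across the 9 arrays were found by Pearson r, as a description of 9 points that share gates and arrays. For Tpm2 at 1419738_a_at they were Krt14, a keratin of basal cells, with r 0.992, Capg, an actin-capping protein, with 0.991, and Pkp1, a desmosome plaque protein, with 0.989. For Mylk at 1425506_at they were Cemip2, Casp12 and Col4a2, a basement membrane collagen chain, with r 0.979, 0.978 and 0.976. For Acta2 they were Plau, Fabp4 and Crip1, with r 0.973, 0.967 and 0.961. Plau, the urokinase, averaged 3.38 in the GFP+ arrays, 4.32 in the lectin-only arrays and 2.35 in the columnar arrays. For Smtn they were St6galnac2, Gsn, the actin-severing gelsolin, and Got2, with r 0.964, 0.961 and 0.952. Among the members themselves, r was 0.915 for Actg2 with Myh11, 0.858 for Acta2 with Tagln, 0.878 for Tpm2 with Smtn and 0.827 for Tpm2 with Mylk. Actg2 was above background only on lectin-only replicate 1, where Myh11 also peaked. Their r therefore draws on 1 array and on values near or under background.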

How the data were processed

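RNA of 9 sorted samples was measured, 3 per gate, grouped by the labels. The deposited values are log2 signals, 1 per probe set and array, made by the authors with RMA, per the submitters' processing notes. RMA usually includes quantile normalization, but the medians of these arrays differ, so whether all 9 were normalized together is unknown, and other scalings were tried. The sources used here name no software or version for it. Of 45101 probe sets, 64 controls were left out. Symbols came from the platform annotation, and RefSeq's gene table brought 34741 up to date. Several symbols (932 probe sets) or none (9160) kept a probe set in the fit but unnamed.

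Gate means were fitted to all 9 arrays in R 4.3.3 by limma 3.58.1, using lmFit with plain eBayes (trend and robust options off), and p-values adjusted over the 45037 probe sets for each of 3 comparisons. The code was tested on simulated data. Errors are limma standard errors, with 6 residual degrees of freedom. Precision is limited by having 3 arrays per gate, with a median SE of 0.255. A probe set under the background level on all 3 arrays of a gate gives a bound ("at least"). Every probe set of the 10 genes is named. From the lists of companions and markers, each gene at its probe set of highest mean, those called against the columnar gate are named, with others of the lists where they bear on a value. The members and lists were chosen with earlier results of these data known. The labels do not say whether replicates came from separate animals, so p-values measure the spread between these samples. Same-numbered GFP+ and columnar arrays deviated together (correlations 0.179, 0.107 and 0.2), which meets the rule used here for a pairing. The values reported are from the fit without a block, so they leave this pairing out, and the block was run as an alternative. The other gate pairs had correlations under 0.1 for at least 1 number. Those of GFP+ with lectin-only arrays were -0.048, 0.344 and 0.354 for numbers 1, 2 and 3. Alternatives covered scaling, probe set choice, background, the replicate block, the arrays fitted and leaving out each array.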

Additional observations from a re-analysis of the deposited data

How the results depend on the processing

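Of 1080 recomputed differences of the 21 probe sets in 3 comparisons, 1053 stayed on their side of the threshold, of which 1008 kept their sign and 45, all uncalled, changed it; 20 lost a call, 7 gained one and 0 called values reversed. Setting values under the background level to it left 3 probe sets higher in the GFP+ and 3 in the lectin-only gate against the columnar gate, in place of 6 and 5: the calls of Acta2, Smtn and the third Tpm2 probe set ended in the GFP+ gate, and those of Mylk and that Tpm2 probe set in the lectin-only gate. The lowest signals of Smtn and of Mylk at 1425506_at were 4.235 and 3.619, above background, so this setting left their own values unchanged. Their differences stayed at 1.93 in the GFP+ gate for Smtn and 3.114 in the lectin-only gate for Mylk. The limma adjusted p-values there were 0.0879 and 0.0889. With their own values unchanged, only the spread that limma shares over all probe sets and the adjustment over them could move these p-values. The part of each was not tested. Leaving out 1 array gave 4 to 6 probe sets higher in each of these 2 comparisons and 0 between the GFP+ and lectin-only gates. With replicate number as a block, 6 were higher in the GFP+ and 6 in the lectin-only gate against the columnar gate, and 0 between the GFP+ and lectin-only gates. The block added Tagln to the lectin-only calls, ended the GFP+ call of Mrtfa (adjusted p = 0.0534) and changed no other call of the 21. Fitting only the 6 arrays compared ended the lectin-only call of Mylk and the GFP+ calls of Smtn, Mrtfa and Kcnmb1 (adjusted p = 0.0543 for Kcnmb1). Mrtfa, Nexn and Kcnmb1 also lost their calls without single arrays. Over all probe sets, centring arrays on their medians changed the lectin-only split against the columnar gate to 1411 higher and 1030 lower, in place of 1714 and 575, and without lectin-only replicate 3 it was 1200 and 599. Centring put the median of all probe sets at -0.18 in that comparison, in place of 0.07, and changed no call of the 21. With dim values set to background, all probe sets gave 984 higher and 323 lower there. Between the GFP+ and lectin-only gates, all probe sets gave 203 higher and 533 lower as deposited, 328 higher when centred, 75 and 198 with dim values set to background, and 67 to 196 higher and 225 to 569 lower without 1 array. With 1 probe set per gene, 1069 were higher in the GFP+ than in the columnar gate, in place of 1737. With 3 arrays per gate, small differences near background were not detectable.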
